A study of Mus musculus with 12 samples.

Results

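Interferon-gamma (IFN-γ) is a cytokine made mainly by T cells and natural killer cells. It binds the receptor chains IFNGR1 and IFNGR2, and signalling through the kinases JAK1 and JAK2 then acts on genes through gamma-activated sequences (GAS) in DNA. Interferon regulatory factors made early in the response bind interferon-stimulated response elements (ISRE), and in liver the response is known for antimicrobial GTPases, chemokines and antigen processing. The data described here are the response of liver to injected IFN-γ in mice that cannot make it themselves, measured on the 2 arrays titled IFN_IFN and the 2 arrays titled IFN_PBS, which are 4 of the 12 arrays of the series. They were chosen by title, and every probe set other than the array's own controls was used.

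All 4 arrays carried total RNA of liver from Interferon-gamma-/- mice, called Ifng-null here, which were injected into the peritoneum and killed after 4 h. The injection was phosphate-buffered saline (PBS) for 1 group of 2 arrays and IFN-γ for the other. No source used here states the dose, strain, sex or age. Nothing says either that the arrays of a group came from different mice, and a p-value given here therefore reflects variation among these arrays alone, which may be technical. The other 8 arrays are livers of mice with and without Socs3 in hepatocytes after PBS or interleukin-6 (IL-6), also at 4 h, and they enter the model that estimates the spread. They are controls with a floxed Socs3 allele and no Cre, and Socs3-deleted mice with 1 null and 1 floxed Socs3 allele and Cre driven by the albumin promoter, which acts in hepatocytes.

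Each value is a signal intensity in arbitrary units, and values under a floor of 33.0 were treated as 33.0. Of 12422 probe sets 9641 lay above that floor on at least 2 of the 12 arrays and were tested with limma, a linear model fitted to the log2 intensities of all probe sets. A probe set passed when its p-value, adjusted by the Benjamini-Hochberg method over the 9641, was under 0.05. Levels of different probe sets are not comparable with each other, since each has its own affinity. Array medians lay between 80.6 and 85.6. Across probe sets the log2 values of the replicates correlated with r = 0.988 after PBS and 0.989 after IFN-γ, with an SD of the log2 difference of 0.320 and 0.315. Hepatocyte markers were bright on all 4 arrays, with the albumin gene Alb at 11468 and 10990 after IFN-γ and 12317 and 11564 after PBS. Pancreatic enzyme genes were low here, with Prss2 between 22.4 and 27.2, although it read 651 and 1863 on 1 PBS array each of the control and Socs3-deleted mice. The Ifng probe set itself read between 6.50 and 7.81 on the 4 arrays, below the floor, so it does not check the genotype.

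The response was made almost wholly of rises. After IFN-γ 59 of 9641 probe sets were higher (0.612%) and 4 were lower (0.0415%), 63 in all (0.653%). In none of the 63 did the PBS and IFN-γ arrays overlap, but a choice by p-value favours such probe sets. The share without overlap over all 9641 was not counted. The rises were large beside the spread of all changes, which had a median of -0.03 and an SD of 0.29 on the log2 scale. Of the 59, 22 changed by 2 or more on the log2 scale, 26 by 1 to 2 and 11 by less than 1. At an unadjusted p under 0.05 the directions were near balance, with 320 probe sets higher and 348 lower. The 58 called probe sets with 1 gene symbol stand for 55 genes, of which 51 rose and 4 fell. The remaining 5 cannot be given a single gene name here, because 2 are annotated with several symbols and 3 with none. Among them is the probe set with the largest rise of all. It is annotated with both Tgtp1 and Tgtp2, genes of immunity-related GTPases, and read 36.6 and 55.6 after PBS and 2318 and 2655 after IFN-γ. An exact permutation test of single genes was not used, because 2 arrays against 2 allow it no two-sided p under 0.333. Groups that do not overlap are for that reason weak evidence alone, here and for the genes named below.

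**Figure D1:**
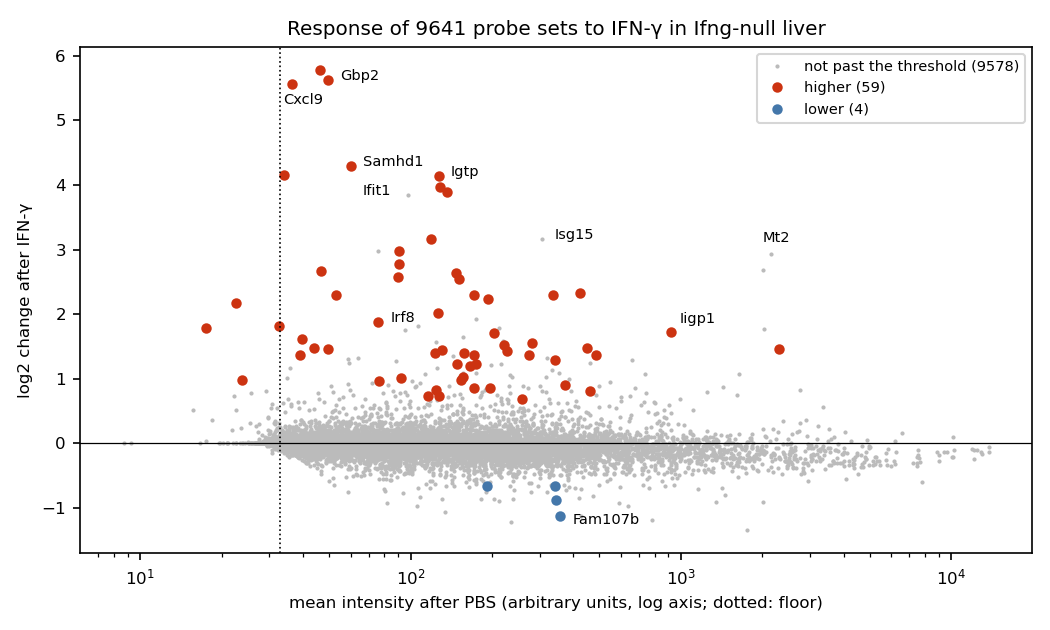
Log2 change after IFN-γ (vertical axis) against the mean intensity after PBS (horizontal log axis, arbitrary units) for the 9641 probe sets tested, with the 59 that were higher in red, the 4 that were lower in blue and the rest in grey. The red points reach 5.78 and lie mostly at low or middle intensities, and the brightest genes lie near 0 or slightly below it.

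The number of calls rests on few arrays. It was 20 without IFN_PBS replicate 1, 20 without IFN_PBS replicate 2, 22 without IFN_IFN replicate 2 and 63 without IFN_IFN replicate 1, and 18, 20, 22 and 37 of the original 63 were among them. It was 8 with no filter on low values, 10 with only the 4 arrays in the fit, 28 with array weights and, in settings chosen after seeing the data, 12 with the floor alone raised to the 50th percentile and 19 without the 2 PBS arrays of the other genotypes that had high pancreatic enzyme genes. Of the 58 named probe sets, those of Gbp3 and Samhd1 were called in all 26 alternative settings, 19 were called in at least 20 and 13 in under 12, and none changed sign in any.

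The promoters of the 6 genes with the largest rise that had a RefSeq entry are shown, since GAS and ISRE are the elements through which the pathway is known to act and the windows show how differently these genes carry them. Each window holds 250 bases before the gene start and 50 after it, from RefSeq on build GRCm38.p6, written 5′ to 3′ on the gene's own strand. Capitals mark matches to the GAS letters TTCNNNGAA or to the ISRE letters GAAANNGAA, searched on both strands. The windows are Gbp2 on the plus strand at chr3:142620413-142620712, Cxcl9 on the minus strand at chr5:92328030-92328329, Samhd1 on the minus strand at chr2:157135047-157135346, Igtp on the plus strand at chr11:58199306-58199605, Rsad2 on the minus strand at chr12:26456403-26456702 and Ifi47 on the plus strand at chr11:49076337-49076636.
Gbp2: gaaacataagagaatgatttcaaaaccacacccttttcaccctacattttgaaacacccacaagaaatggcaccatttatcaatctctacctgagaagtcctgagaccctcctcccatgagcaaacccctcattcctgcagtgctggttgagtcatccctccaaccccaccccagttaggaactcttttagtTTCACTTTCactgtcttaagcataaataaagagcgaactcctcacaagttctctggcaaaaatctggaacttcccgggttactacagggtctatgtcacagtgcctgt
Cxcl9: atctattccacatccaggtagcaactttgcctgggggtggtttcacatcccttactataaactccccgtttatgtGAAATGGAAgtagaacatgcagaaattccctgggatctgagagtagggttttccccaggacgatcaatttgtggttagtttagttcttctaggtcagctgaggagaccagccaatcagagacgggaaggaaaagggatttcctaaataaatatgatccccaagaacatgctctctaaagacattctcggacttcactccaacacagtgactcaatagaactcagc
Samhd1: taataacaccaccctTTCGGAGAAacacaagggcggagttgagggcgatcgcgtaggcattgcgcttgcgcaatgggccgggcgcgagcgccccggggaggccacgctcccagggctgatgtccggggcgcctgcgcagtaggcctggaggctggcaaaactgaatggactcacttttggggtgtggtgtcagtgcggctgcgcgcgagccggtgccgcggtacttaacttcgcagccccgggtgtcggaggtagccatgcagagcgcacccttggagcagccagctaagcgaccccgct
Igtp: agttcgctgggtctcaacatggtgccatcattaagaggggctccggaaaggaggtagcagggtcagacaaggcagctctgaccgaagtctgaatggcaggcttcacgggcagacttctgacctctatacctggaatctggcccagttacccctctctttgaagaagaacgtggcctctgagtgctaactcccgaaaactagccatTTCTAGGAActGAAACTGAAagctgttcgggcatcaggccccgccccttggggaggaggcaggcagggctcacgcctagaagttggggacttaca
Rsad2: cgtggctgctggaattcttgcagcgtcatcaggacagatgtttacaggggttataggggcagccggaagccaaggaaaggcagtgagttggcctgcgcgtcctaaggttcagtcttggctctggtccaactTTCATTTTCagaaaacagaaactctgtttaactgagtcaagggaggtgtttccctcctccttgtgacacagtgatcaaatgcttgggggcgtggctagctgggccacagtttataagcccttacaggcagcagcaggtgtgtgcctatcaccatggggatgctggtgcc
Ifi47: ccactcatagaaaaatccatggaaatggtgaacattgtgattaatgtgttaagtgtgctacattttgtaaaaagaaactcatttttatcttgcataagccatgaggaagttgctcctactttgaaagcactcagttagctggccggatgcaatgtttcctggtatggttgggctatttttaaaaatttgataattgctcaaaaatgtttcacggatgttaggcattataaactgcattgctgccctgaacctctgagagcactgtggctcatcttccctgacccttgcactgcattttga
Counted from the gene start, with -1 the last base before it, the ISRE match of Gbp2 began at -58, that of Cxcl9 at -175 and that of Rsad2 at -119. Samhd1 had a GAS match at -235 and no ISRE match. Igtp had a GAS match at -45 and an ISRE match at -34, separate from each other. Ifi47 had neither in its window, which says only that these letters are not in these 300 bases.

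The guanylate-binding proteins, GTPases that attack the vacuoles of intracellular pathogens, gave the largest rise of a probe set with 1 gene symbol. Gbp2 read 49.6 and 49.1 after PBS and 2591 and 2298 after IFN-γ, which is 5.63 ± 0.57 (SE) on the log2 scale with a limma adjusted p = 0.00227. The IFN-γ arrays lay far above both PBS arrays and close to each other. Gbp7 read 124 and 113 after PBS and 1084 and 1045 after IFN-γ, a log2 change of 3.17 ± 0.33 (limma adjusted p = 0.00255). Gbp3 read 82.6 and 98.9 after PBS and 678 and 742 after IFN-γ, a log2 change of 2.97 ± 0.19 (limma adjusted p = 0.000142). Gbp2b, the fourth member with a probe set of its own, read 29.4 and 24.4 after PBS and 40.2 and 38.7 after IFN-γ, just above the floor, and did not pass (log2 change 0.26, limma adjusted p = 0.696). The median of the 4 genes was 3.07, beside -0.04 over the 6976 genes tested. Of those 6976, each read by its brightest probe set, 50 were called higher and 4 lower. That is the background for the counts in every list below.

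The immunity-related GTPases, a related family that disrupts the same vacuoles, rose in all 5 members with a probe set of their own. Their median log2 change was 2.58. The probe set annotated with both Tgtp1 and Tgtp2 is not among the 5 and rose by 5.78 (limma adjusted p = 0.000453). Igtp read 116 and 138 after PBS and 2295 and 2177 after IFN-γ, a log2 change of 4.14 ± 0.42 (limma adjusted p = 0.00229). Ifi47 read 113 and 161 after PBS and 2113 and 1877 after IFN-γ, a log2 change of 3.89 ± 0.53 (limma adjusted p = 0.0134). Irgm1 and Irgm2 rose as well. Irgm1 read 74.6 and 106 after PBS and 412 and 685 after IFN-γ (log2 change 2.58), and Irgm2 read 341 and 331 after PBS and 1692 and 1607 after IFN-γ (log2 change 2.30). Iigp1 was already bright after PBS, at 2311 and 2303 on its brighter probe set, and read 6324 and 6373 after IFN-γ, a log2 change of 1.46 ± 0.24 (limma adjusted p = 0.0311). Its second probe set, of a kind that can match several similar transcripts, gave 1.73.

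**Figure D2:**
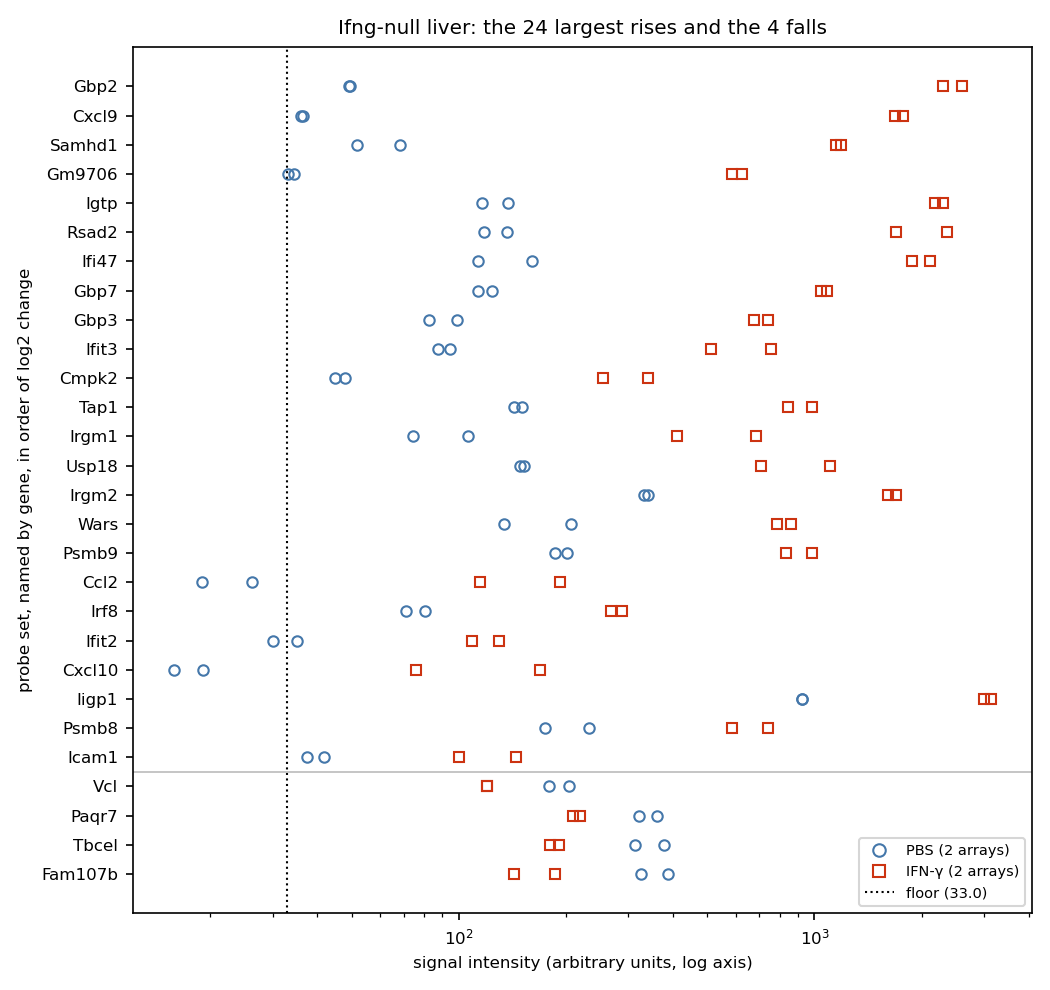
Signal intensity (horizontal log axis, arbitrary units) on each PBS array (blue circles) and each IFN-γ array (red squares) for the 24 named probe sets with the largest rise and, under the grey line, the 4 that fell. In every one the circles and squares are apart. Both circles of Ccl2 and Cxcl10, and 1 circle of Ifit2, lie below the dotted floor of 33.0.

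Chemokines that draw in T cells and monocytes rose from very low levels, and only 3 of 19 measured chemokine genes did so. Cxcl9, a ligand of the T cell chemokine receptor CXCR3, read 36.6 and 36.1 after PBS, barely above the floor, and 1687 and 1771 after IFN-γ (log2 change 5.57 ± 0.53, limma adjusted p = 0.00173). Cxcl10, another CXCR3 ligand, was under the floor at 15.8 and 19.1 after PBS and read 75.7 and 169 after IFN-γ, at least 3.43-fold higher (limma adjusted p = 0.0252). Ccl2, which attracts monocytes, was under the floor at 26.2 and 19.0 after PBS and read 115 and 193 after IFN-γ, at least 4.52-fold higher (limma adjusted p = 0.00722). A group at the floor shows no spread, so the p-values of the last 2 may be too small. Cxcl10 was above the floor only on the IFN-γ arrays, so every other group in the model showed no spread. Those arrays alone brought it into the test, so its p-value is weak evidence for counting it among the 3. The other 16 had a log2 change between -0.28 and 0.23 apart from Cxcl1, a neutrophil chemokine that read 1349 and 124 after PBS and 572 and 1291 after IFN-γ and whose groups overlapped. The median of the 19 was 0.00.

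No gene of the receptor or its kinases passed. All 12 measured genes of the receptor and JAK-STAT list lay between -0.14 and 0.30 on the log2 scale with a median of 0.07. Ifngr1 read 44.2 and 46.4 after PBS and 43.0 and 41.7 after IFN-γ, and Ifngr2 read 95.9 and 92.6 after PBS and 77.9 and 93.8 after IFN-γ. Jak1 had a log2 change of 0.30, Jak2 of 0.20 and Stat3, the main transducer of IL-6, of 0.28.

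Of the interferon regulatory factors, the transcription factors that carry the later part of the response, 1 of 7 passed. Irf8, known from myeloid cells, read 80.5 and 71.0 after PBS and 288 and 268 after IFN-γ, a log2 change of 1.88 ± 0.12 (limma adjusted p = 0.000142). Irf1, a classic early gene of the response, read 200 and 237 after PBS and 536 and 801 after IFN-γ and did not pass (log2 change 1.59 ± 0.30, limma adjusted p = 0.0595), although it did in 6 of 26 alternative settings. Irf7 read 205 and 229 after PBS and 426 and 610 after IFN-γ (log2 change 1.23, limma adjusted p = 0.107). For both genes every IFN-γ array lay above every PBS array. The other 4 lay between -0.21 and 0.11.

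Feedback inhibitors showed 1 rise among 12 genes. Usp18, a protease that removes ISG15 and damps interferon receptor signalling, read 149 and 153 after PBS and 706 and 1103 after IFN-γ, a log2 change of 2.55 ± 0.21 (limma adjusted p = 0.000746). The suppressors of cytokine signalling did not pass. Socs1, the main brake on the IFN-γ receptor, read 146 and 167 after PBS and 265 and 419 after IFN-γ (log2 change 1.09 ± 0.78, limma adjusted p = 0.997). Its large error includes an IL-6 array of Socs3-deleted mice at 2150 whose partner read 219. Socs2 read 99.1 and 91.4 after PBS and 323 and 319 after IFN-γ (log2 change 1.75, limma adjusted p = 0.266). Socs3 read 163 and 114 after PBS and 133 and 130 after IFN-γ, with overlapping groups. The phosphatase genes Ptpn1 and Ptpn2 had log2 changes of 0.81 and 0.55 and did not pass.

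Antiviral effectors better known from type I interferon also rose, in 5 of 14 measured genes, and all 14 changes were positive with a median of 0.75. Samhd1, which destroys the nucleotides viruses need for DNA synthesis, read 68.3 and 51.8 after PBS and 1148 and 1185 after IFN-γ, a log2 change of 4.29 ± 0.25 (limma adjusted p = 0.000142). A second Samhd1 probe set was below the floor, between 17.5 and 20.4 on the 4 arrays, and was not tested. Rsad2, the gene of viperin, read 118 and 137 after PBS and 1696 and 2351 after IFN-γ, a log2 change of 3.97 ± 0.34 (limma adjusted p = 0.000746). Its neighbour in function, Cmpk2, a nucleotide kinase, read 48.0 and 44.9 after PBS and 340 and 254 after IFN-γ (log2 change 2.66). The translation inhibitors Ifit3 and Ifit2 rose by 2.78 and 1.81 on the log2 scale. Ifit3 passed only narrowly (limma adjusted p = 0.0496). Ifit2 passed more clearly (limma adjusted p = 0.00278), with 1 PBS array under the floor at 30.1. Ifit1, of the same family, had a larger change than either and did not pass: it read 88.2 and 108 after PBS and 1176 and 1656 after IFN-γ (log2 change 3.84 ± 0.83, limma adjusted p = 0.120). The error is pooled over the 6 groups, in which the PBS arrays of Socs3-deleted mice read 530 and 67.8, and without either of these arrays Ifit1 passed. Mx1, the resistance GTPase against influenza, read 14.8 and 16.6 after PBS and 41.1 and 54.2 after IFN-γ. Both PBS values of Mx1 were under the floor, so its log2 change of 0.52, which did not pass (limma adjusted p = 0.341), is set by the floor. A floor at the 10th percentile gave 1.59 for Mx1, which then passed, as it did in 3 of 26 alternative settings. Isg20, an exonuclease, had 0.81 and did not pass.

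In the list of ISG15, a ubiquitin-like modifier that tags proteins, and related conjugation genes, 3 of 5 rose and the median was 1.36. Of the ISG15 pathway itself these were Usp18 and the activating enzyme gene Uba7 (165 and 177 after PBS, 325 and 295 after IFN-γ, log2 change 0.86). The third was Ubd, the gene of FAT10, a separate ubiquitin-like modifier (42.8 and 35.4 after PBS, 76.7 and 129 after IFN-γ, log2 change 1.36). Isg15 itself read 268 and 344 after PBS and 2406 and 3122 after IFN-γ and missed the threshold (log2 change 3.17 ± 0.61, limma adjusted p = 0.0678). Its 2 groups here did not overlap, while the IL-6 arrays of control mice read 1635 and 299, and Isg15 passed without either of those. Its conjugating enzyme gene Ube2l6 had a log2 change of 0.59 and did not pass.

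Among 8 measured genes of nucleic acid sensing 4 rose, and the median was 0.87. Trim30a, a TRIM protein gene, read 41.9 and 45.8 after PBS and 98.9 and 150 after IFN-γ (log2 change 1.47). Ifih1, the gene of the RNA sensor MDA5, read 148 and 149 after PBS and 327 and 365 after IFN-γ (log2 change 1.22). Myd88, the adaptor of Toll-like receptors, rose by 0.98 on the log2 scale, and Ifi204, a DNA sensor gene, by 1.39 on a probe set that can match related genes. A second Ifi204 probe set gave 0.03 and did not pass, but it read 36.0 and 27.7 after PBS and 37.5 and 25.7 after IFN-γ, around the floor. A probe set annotated with Mndal, Ifi211, Ifi205 and Ifi204 together rose by 2.02 (limma adjusted p = 0.0206). Adar, an RNA editing enzyme gene, had a log2 change of 0.77 and did not pass.

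Antigen processing split by step. The inducible proteasome subunits, which replace their constitutive partners and change how proteins are cut, rose in 3 of 4 genes. Psmb9 read 186 and 202 after PBS and 831 and 987 after IFN-γ (log2 change 2.23 ± 0.24, limma adjusted p = 0.00333), Psmb8 175 and 232 after PBS and 587 and 740 after IFN-γ (log2 change 1.71) and Psmb10 431 and 468 after PBS and 1158 and 1350 after IFN-γ (log2 change 1.48). The fourth, the activator gene Psme1, had a log2 change of 0.56 and did not pass. None of 24 constitutive proteasome genes passed, and their median was 0.03, with Psma5 at 0.71 and Psma7 at 0.56.

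In peptide loading, Tap1, a subunit of the transporter that carries peptides into the endoplasmic reticulum, read 143 and 151 after PBS and 985 and 841 after IFN-γ (log2 change 2.63 ± 0.24, limma adjusted p = 0.00149). Its dimmer probe set read 73.7 and 58.1 after PBS and 61.6 and 60.2 after IFN-γ, so the probe sets of this gene disagree. The partner subunit gene Tap2 read 135 and 109 after PBS and 248 and 184 after IFN-γ and did not pass (log2 change 0.81, limma adjusted p = 0.245). The probe sets of Tapbp, a chaperone of peptide loading, differed, and none passed. The brightest read 362 and 332 after PBS and 504 and 357 after IFN-γ (log2 change 0.29), another 203 and 272 after PBS and 466 and 486 after IFN-γ (log2 change 1.02, limma adjusted p = 0.102), and the third gave 0.34. Of the genes of the molecules that present the peptides, 0 of 11 MHC class I genes passed, with changes from -0.28 to 0.31. H2-K1 read 4839 and 5170 after PBS and 4316 and 5359 after IFN-γ, H2-D1 3975 and 4028 after PBS and 3410 and 4192 after IFN-γ, and B2m, the shared light chain, 3992 and 4030 after PBS and 3556 and 3782 after IFN-γ. The class I probe sets were bright, and H2-K1 and H2-D1 are read by probe sets that can match related genes. Under quantile normalization H2-K1 and H2-D1 changed sign, both to 0.06. H2-T24 had the highest value of the list, 0.31. Of 12 MHC class II genes, which act in dedicated antigen-presenting cells, 0 passed, with a median of 0.13, Cd74 at 0.43 and H2-DMa at 0.33.

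**Figure D3:**
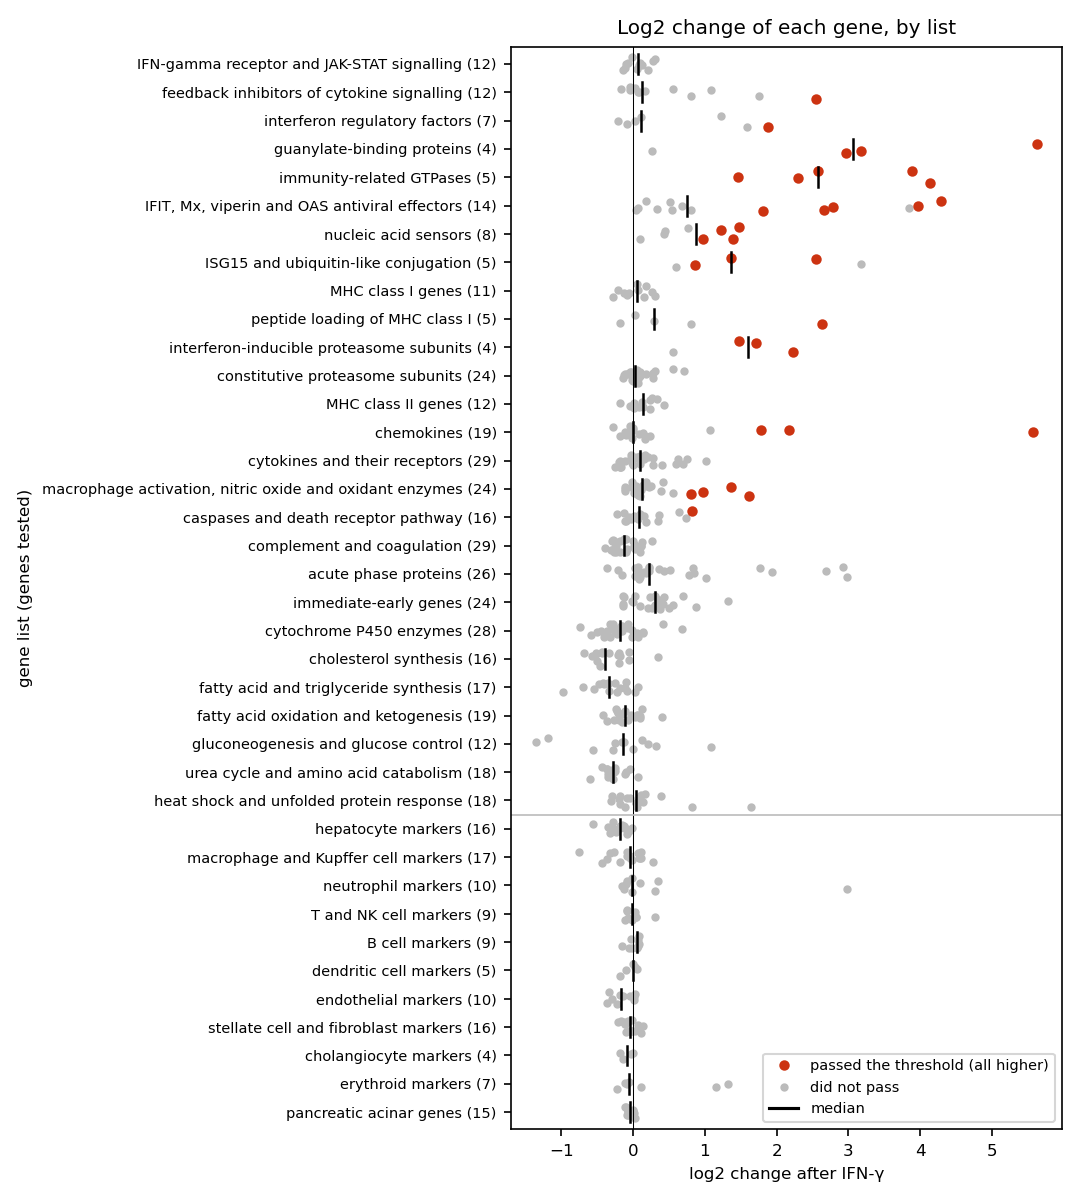
Log2 change after IFN-γ (horizontal axis) of each tested gene in 27 pathway lists (above the grey line) and 11 lists of cell type markers (below it), with genes that passed in red, the rest in grey and the median of each list as a black bar. Red points are found in the GTPase, antiviral, sensor, ISG15, proteasome, peptide loading, chemokine, macrophage, feedback, regulatory factor and death receptor lists, and in no metabolic list or marker list.

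Genes of macrophage activation were called in 4 of 24 cases, all higher, beside 50 of all 6976 genes called higher. Icam1, an adhesion molecule for leukocytes, read 37.4 and 41.8 after PBS and 100 and 145 after IFN-γ (log2 change 1.61). Fcgr1, the high-affinity IgG receptor, read 79.0 and 74.4 after PBS and 136 and 166 after IFN-γ (log2 change 0.97 ± 0.12, limma adjusted p = 0.00796), while its other probe set gave 0.47 and did not pass. Lgals3bp, a secreted glycoprotein gene, rose by 0.81 on the log2 scale. The fourth was Wars, the tryptophan tRNA synthetase gene, which rose on 2 of its 3 probe sets, by 1.37 and 2.30, while the third gave 0.40 and did not pass. The median of the list was 0.13. Ly6e had a log2 change of 0.56 and did not pass. Of 16 genes of caspases and death receptors only Daxx, a nuclear death-domain binding protein, passed (124 and 124 after PBS, 203 and 236 after IFN-γ, log2 change 0.82), and the receptor gene Fas read 21.3 and 23.4 after PBS and 46.2 and 65.2 after IFN-γ. Both PBS values of Fas were under the floor, so its log2 change of 0.73 (limma adjusted p = 0.0851) is set by the floor. A floor at the 10th percentile gave 1.30, and Fas then passed, as it did in 6 of the 25 alternative settings that tested it. None of 29 cytokines and cytokine receptors passed. Il18bp, a decoy that binds interleukin-18, had 0.75, and the interleukin-1 antagonist gene Il1rn had 1.01.

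Other named genes rose outside these lists. Xdh, which makes uric acid from purines, read 287 and 277 after PBS and 830 and 822 after IFN-γ (log2 change 1.55). Both probe sets of the translation initiation factor gene Eif1a rose, by 1.43 and 1.19. Plscr1, a membrane scramblase gene, Nmi, Znfx1, an RNA helicase gene, and Plac8 rose by 1.45, 1.46, 1.39 and 1.52. Gm9706 rose by 4.16, on a probe set that can match several transcripts, so its name is uncertain. Crybg1, AW112010 and the ubiquitin ligase gene Rnf19b rose by 1.36, 1.29 and 1.22. Gja4, a gap junction gene of arterial endothelium, read 154 and 160 after PBS and 280 and 364 after IFN-γ (log2 change 1.03). Inpp1 rose by 1.01 on 1 probe set and had 0.18 on the other. The nuclear body gene Pml rose by 0.86 and the opioid growth factor receptor gene Ogfr by 0.90. Lilr4b, an inhibitory leukocyte receptor gene, was under the floor at 26.8 and 20.9 after PBS and was at least 1.97-fold higher after IFN-γ. The smallest rises were those of Phc2, Gpd2 and Hip1r, at 0.73, 0.73 and 0.68, the Gpd2 probe set being of a kind that can match several transcripts.

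The 4 falls were small. Fam107b read 388 and 326 after PBS and 186 and 143 after IFN-γ, a 2.18-fold fall (limma adjusted p = 0.0125). Tbcel, a tubulin-binding protein gene, read 312 and 377 after PBS and 181 and 191 after IFN-γ, a 1.84-fold fall (limma adjusted p = 0.0189). Paqr7, a membrane progestin receptor gene, read 321 and 362 after PBS and 219 and 210 after IFN-γ, and Vcl, the gene of vinculin, 179 and 204 after PBS and 120 and 120 after IFN-γ, each a 1.59-fold fall. The other Vcl probe set, near the floor, gave -0.19 and did not pass. No list named here held any of the 4 genes.

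Several lists of liver metabolism lay mostly below 0, and no gene in the metabolic lists passed. Of 16 genes of cholesterol synthesis 15 were negative with a median of -0.39, of 17 genes of fatty acid and triglyceride synthesis 15 were negative with a median of -0.34, and of 18 genes of the urea cycle and amino acid breakdown 17 were negative with a median of -0.29. Over all 6976 genes tested 4333 changes were negative and 2594 positive. Slc2a2, the glucose transporter of hepatocytes, read 684 and 879 after PBS and 304 and 382 after IFN-γ (log2 change -1.19 ± 0.26, limma adjusted p = 0.126). G6pc, the last enzyme of glucose release, read 1630 and 1877 after PBS and 462 and 1017 after IFN-γ (log2 change -1.35 ± 0.46, limma adjusted p = 0.477). For both the groups did not overlap. Fasn, the fatty acid synthase gene, read 486 and 785 after PBS and 283 and 345 after IFN-γ, and Hmgcs1, an early enzyme of cholesterol synthesis, 308 and 466 after PBS and 210 and 266 after IFN-γ. Gpam, which starts triglyceride assembly, had a log2 change of -0.70. The cholesterol list turned on single arrays, with a median of -0.06 without IFN_IFN replicate 1 and -0.68 without IFN_PBS replicate 1. Of the cytochrome P450 genes, which oxidise drugs and steroids, 22 of 28 were negative with a median of -0.18, among them Cyp2e1 at -0.19, Cyp3a25 at -0.59 and Cyp7a1, the rate-limiting enzyme of bile acid synthesis, at -0.74. Tdo2, which breaks down tryptophan, read 7816 and 7765 after PBS and 4153 and 6361 after IFN-γ, and Cps1, the entry enzyme of the urea cycle, had -0.35. In the gluconeogenesis list of 12 genes 7 were negative, and Igfbp1 had 1.09. In the list of fatty acid oxidation and ketogenesis 12 of 19 were negative, with a median of -0.12. Both counts are near the share over all genes tested.

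All 16 hepatocyte markers were negative, with a median of -0.19 and none passing. They include Cps1, Cyp2e1 and Tat, at -0.35, -0.19 and -0.56. In RNA of whole liver, fewer cells of a type and less RNA per cell cannot be told apart, and their part in the metabolic values was not tested. Under quantile normalization the median of the hepatocyte markers was -0.08, and Alb and Apoa1 changed sign, to 0.04 and 0.02.

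Acute phase genes, which hepatocytes switch on under IL-6, were positive in 23 of 26 cases, beside 2594 of all 6976 genes tested. Their median was 0.22, and none passed. IFN_PBS replicate 1 was itself high for several of them. Mt2, a metal-binding protein gene, read 4069 and 243 after PBS and 7044 and 8160 after IFN-γ (log2 change 2.93 ± 1.05, limma adjusted p = 0.532), and Mt1 read 3654 and 358 after PBS and 6397 and 8525 after IFN-γ. Saa2 read 3588 and 479 after PBS and 3101 and 6434 after IFN-γ, so its groups overlapped. The log2 change of Mt2 was 4.96 without IFN_PBS replicate 1 and 0.90 without IFN_PBS replicate 2. Its size therefore turned on which PBS array was kept. Lcn2, which withholds iron from bacteria, read 120 and 31.8 after PBS and 359 and 692 after IFN-γ (log2 change 2.98, limma adjusted p = 0.138), and Saa3 read 202 and 147 after PBS and 409 and 1051 after IFN-γ. Hp, the haptoglobin gene, had 0.09. Immediate-early genes were positive in 19 of 24 cases with a median of 0.30 and none passing, with Atf3 at 1.32 and Cebpd at 0.87. Of 29 complement and coagulation genes 10 were positive, near the share over all genes tested. Their median was -0.13, with Serping1 at 0.26 and Plg at -0.31. In the heat shock and unfolded protein list of 18 genes 0 passed, and Hspa1b read 112 and 201 after PBS and 513 and 428 after IFN-γ (log2 change 1.64).

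Markers of other cells did not pass in any list. The 17 macrophage and Kupffer cell markers had a median of -0.05, and Clec4f and Cd5l, both of Kupffer cells, had -0.32 and -0.75. Neutrophil markers had a median of -0.01, with Lcn2 the sole large value. Of 17 T and NK cell markers on the array 8 were below the floor, and the 9 tested had a median of -0.02. B cell, dendritic cell and endothelial markers had medians of 0.05, 0.00 and -0.16, stellate cell markers -0.04 and cholangiocyte markers -0.08. Haemoglobin differed between arrays, with Hba-a1 at 325 and 317 after PBS and 497 and 1298 after IFN-γ and Hbb-b2 at 30.8 and 40.7 after PBS and 52.8 and 127 after IFN-γ. IFN_IFN replicate 2, the highest of the 4 arrays for both haemoglobin genes, was also the higher of the IFN-γ arrays for 40 of the 59 probe sets that rose. The same share over all probe sets tested was not counted, so the 40 have no background to be judged against. The part of blood in the haemoglobin values and in the rises was not tested.

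The response was set against the IL-6 responses of the other mice, which share no arrays with it but differ from it in both cytokine and genotype. The difference between the IFN-γ response and the IL-6 response of control mice passed for 5 of 9641 probe sets (0.0519%), all higher after IFN-γ. They were Samhd1 (difference 3.87 ± 0.35 on the log2 scale, limma adjusted p = 0.00613), Cmpk2 (2.56 ± 0.25), Gbp3 (2.38 ± 0.27), Irf8 (1.74 ± 0.17) and a probe set with no gene symbol (2.15 ± 0.25). Samhd1 read 52.3 and 51.8 after PBS and 90.8 and 53.7 after IL-6 in control mice, against 1148 and 1185 after IFN-γ in Ifng-null mice. In control mice Gbp2 read 43.8 and 50.3 after PBS and 144 and 61.3 after IL-6, and the log2 change of Cxcl9 was 1.21, but for neither gene did the difference from IFN-γ pass (limma adjusted p = 0.187 for each). The count of 5 became 13 without IFN_IFN replicate 1, 10 without either S3_PBS array, 8 without WT_IL6 replicate 1, 3 without either S3_IL6 array, 2 without WT_IL6 replicate 2 and 0 without either WT_PBS array.

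Against the IL-6 response of Socs3-deleted mice 2 of 9641 probe sets differed (0.0207%), in opposite directions. Irf8 was higher after IFN-γ (difference 1.64 ± 0.17, limma adjusted p = 0.0148). In Socs3-deleted mice its IL-6 arrays read 110 and 100 and its PBS arrays 90.5 and 88.3, a log2 change of 0.24. Mx1 was lower after IFN-γ (difference -2.30 ± 0.21, limma adjusted p = 0.0128), and its Socs3-deleted arrays read 22.2 and 16.0 for PBS and 205 and 265 for IL-6. Both PBS groups of Mx1 were under the floor, so the size of this difference depends on the floor. Samhd1, Gbp2 and Cmpk2 had log2 changes of 2.80, 4.15 and 2.67 in the IL-6 response of Socs3-deleted mice, and their differences from the IFN-γ response did not pass (limma adjusted p = 0.571 for Samhd1 and 1 for the others). The error of such a difference is wide with 2 arrays a group, and for Gbp2 the difference was 1.48 ± 0.80 (SE). The count of 2 became 16 without S3_IL6 replicate 1, 4 without either WT_IL6 array, 1 without IFN_IFN replicate 2, and 0 without IFN_PBS replicate 2, S3_IL6 replicate 2, S3_PBS replicate 2 or either WT_PBS array.

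**Figure D4:**
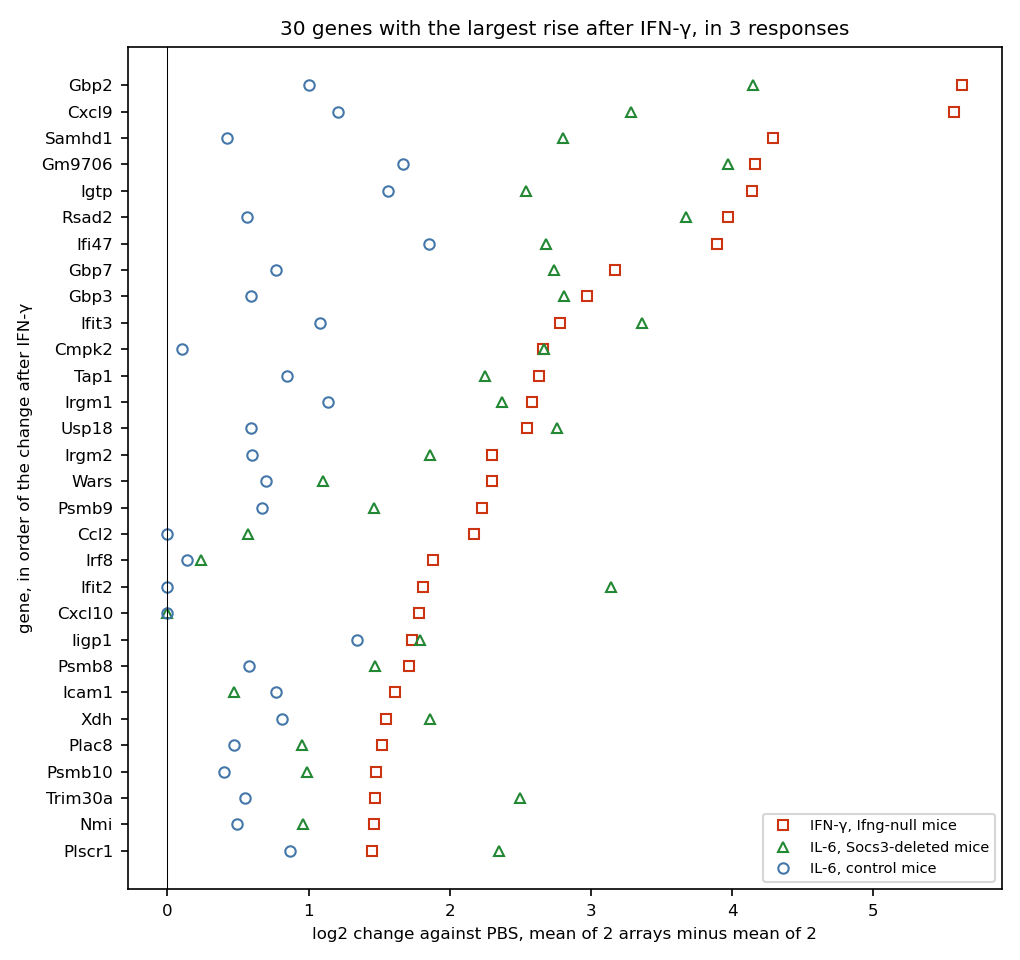
Log2 change against PBS (horizontal axis) for IFN-γ given to Ifng-null mice (red squares), IL-6 given to Socs3-deleted mice (green triangles) and IL-6 given to control mice (blue circles) for the 30 named genes with the largest rise after IFN-γ, each the mean of 2 arrays minus the mean of 2. Genes were chosen on the red values, Irf8 has its triangle at 0.24 and its square at 1.88, and Ifit2 has its triangle at 3.14 and its square at 1.81.

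The promoter windows of all genes that rose were searched for the same letters. Of the 51 genes that rose 43 had a window, and 12 of these held a GAS match (27.9%), 15 an ISRE match (34.9%) and 23 either (53.5%). Among the 5557 tested genes with a window the shares were 8.08%, 8.60% and 15.5%, and among all 32851 windows they were 8.30%, 8.56% and 15.8%. Of the 14 genes that rose by 2 or more on the log2 scale, 9 held an ISRE match (64.3%) and 4 a GAS match (28.6%). Irf8 had GAS matches at -171 and -153, and Irgm2 had the same order as Igtp, with GAS at -75 and ISRE at -64. Gbp7 held GAS matches at -106 and -87 and an ISRE match at -52, and Gbp3 ISRE matches at -44 and -38. Ifit3 had ISRE matches at -155, -121 and -102. The GAS and ISRE matches of Myd88, at -46 and -40, overlap. None of the 4 genes that fell held either. These are matches of letters, counted without a test, and say nothing of binding.

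**Figure D5:**
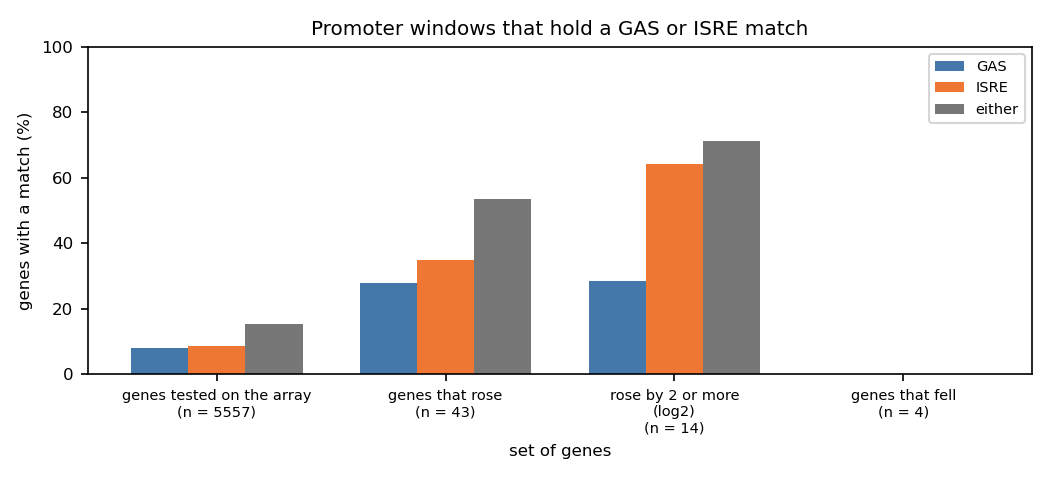
Share of genes (vertical axis, percent) whose promoter window holds a GAS match, an ISRE match or either, among the 5557 tested genes with a window, the 43 that rose, the 14 that rose by 2 or more on the log2 scale and the 4 that fell. The bars for either motif stand at 15.5%, 53.5% and 71.4%, with 0 for the genes that fell.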

How the data were processed

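The deposited values are linear signal intensities. No source used here says how the authors obtained each intensity value, and no further scaling was applied. Array titles and descriptions gave the groups. After removal of 66 control probe sets from 12488, values were raised to the 25th percentile over all arrays where lower and put on the log2 scale. This shrinks the change of dim genes.

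R 4.3.3 and limma 3.58.1 fitted 6 group means to the 12 arrays (lmFit, contrasts.fit, eBayes), with 6 residual and 3.38 prior degrees of freedom. All tests are two-sided. Errors of log2 changes are SE.

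Of the probe sets 10833 carried 1 symbol, 396 several and 1193 none, and 10817 were matched to a current gene by Entrez identifier. For a gene with several probe sets, lists use the brightest over the 12 arrays. The members and lists were chosen with earlier results of these data known. Named are the called genes and, per list, the brightest and most changed of the others, with ranges for the rest. The code was tested on simulated data. Alternatives covered normalization, floor, filter, weights, a replicate block and each array left out in turn.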

Additional observations from a re-analysis of the deposited data

How the results depend on the processing

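The 63 calls of the IFN-γ response became 28 with array weights, 10 when fitted on its own 4 arrays, 8 without a filter and, left out singly, between 20 and 63 by array. Of settings chosen after seeing the data, 12 were called with the floor at the 50th percentile and the filter kept at the 25th, and 19 when the 2 arrays high in pancreatic enzymes were dropped. The cause was not tested. The 5 differences from the IL-6 response of control mice became 0 without a filter, 8 with floor and filter at the 50th percentile, 2 with the floor alone raised, 1, which was not among the 5, without the 2 pancreatic arrays, and 0 to 13 by array left out. The 2 differences from Socs3-deleted mice became 1 with the floor at the 10th percentile, 8 at the 50th, 11 with the floor alone raised, 5 with log2 of value plus floor, 4 with values above the floor on at least 4 arrays, 0 with only the arrays compared, 0 without the 2 pancreatic arrays and 0 to 16 by array left out. Without a filter 2 differed, both lower, and neither Irf8 nor Mx1 was among them.

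Several uncalled genes changed sign. Under quantile normalization Alb was 0.04, Apoa1 0.02, H2-D1 0.06 and H2-K1 0.06, and as a mean over all probe sets of the gene H2-D1 was 0.10 and H2-K1 0.08. By array left out the log2 change lay between -0.65 and 2.79 for Cxcl1, -0.23 and 0.07 for H2-D1, -0.21 and 0.10 for H2-K1 and -0.31 and 0.21 for Socs3.

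With the replicate number as a replicate block 60 probe sets were called, 55 of them among the 63, and with a block for the 4 Ifng-null arrays alone, added after seeing the data, 68 were called, 57 of them shared. With the first block Tap2 passed (limma adjusted p = 0.0126), and 1 rather than 4 of the nucleic acid sensor genes did. The differences between replicates correlated at 0.665 between the PBS and IFN-γ arrays, but no label ties the numbers and there are only 2 pairs, so the samples share only a number. Having 2 arrays a group limits the precision of every value, and where 1 array of a group remains its variation is taken to be that of the others.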
